A study of Mus musculus with 6 samples.

Results

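Respiratory complex I (NADH:ubiquinone oxidoreductase) is the entry point of electrons from NADH into the mitochondrial respiratory chain. The genes described here are the 43 of 19938 genes tested whose symbol begins with Nduf. They were taken by name, and no measured value entered that rule, though earlier results of these data were known when it was set. Of these, 36 carry the names of structural subunits (Ndufa, Ndufb, Ndufc, Ndufs and Ndufv) and 7 are the assembly factors Ndufaf1 to Ndufaf7. Ndufb1 and Ndufaf8 were not analysed here, and Ndufb4 was measured only by probe sets shared with Ndufb4b. Ndufa4 and Ndufa4l2 keep their old names but belong with complex IV, so the complex I subunits proper number 34.

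The samples are 6 libraries of frontal cortex from wild type 129S6/SvEv mice aged 8 to 12 weeks. In the SAHA group, 3 libraries come from mice injected with 20 mg/kg of suberoylanilide hydroxamic acid (vorinostat, an inhibitor of zinc-dependent histone deacetylases) over 21 days. The 3 libraries of the control group come from mice given vehicle over the same time, named saline in the sample titles, and all tissue was taken 1 day after the final dose. Whether the libraries of a group are separate animals is not given, so each p-value below measures spread between libraries, which may be technical.

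All values are log2 signals of a whole-transcript array after RMA, which is background correction, normalization and summary of a probe set. Array medians over all genes were 6.92 to 6.93 in saline and 6.94 to 6.98 in SAHA. Precision is limited by there being 6 arrays: the standard error (SE) of a difference had a median of 0.063 log2 over the 43 genes. Saline replicate 1 stood apart in Xist, at 10.91 where the other libraries lay between 4.63 and 4.88, and SAHA replicate 3 in the Y-linked gene Eif2s3y, at 7.80 where the others lay between 9.18 and 9.25. For many members the value without a library stands beside the result, but not every shift of this kind is given. Of the fixed markers of cortical excitatory neurons, Camk2a had a mean signal of 12.37, Slc17a7 of 10.49, Tbr1 of 10.19 and Neurod6 of 9.37. The arrays hold bulk tissue, in which fewer cells of a type and less RNA per cell cannot be told apart.

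Complex I is shaped like an L. The arm that reaches into the mitochondrial matrix holds the N module, where NADH is oxidised, and the Q module, where iron-sulphur clusters hand electrons to ubiquinone. The arm in the inner membrane pumps protons. The catalytic core is encoded partly in the nucleus and partly in the mitochondrial genome, accessory subunits surround it, and assembly factors build it but leave the finished enzyme. Neurons draw most of their ATP from this chain, and loss of single subunits or assembly factors is a known cause of mitochondrial encephalopathy.

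Most complex I genes had slightly lower signals after SAHA, as did most genes of like signal. Of the 36 structural names, 28 (77.8%) were lower in SAHA, with a median difference of -0.078 log2. Among all genes tested 47.1% were lower, with a median difference of 0.011. Complex I genes are bright on the array, however: 32 of the 43 lay in the upper 2 deciles of mean signal. In deciles with the composition of the structural list, 75.6% of all genes were lower, so the share of lower subunits was close to that background. Of the 7 assembly factors, 6 (85.7%) were lower, with a median of -0.10, where genes of the same deciles gave 68.6%. Over the 43 genes the differences ranged from -0.37 for Ndufa1 to 0.16 for Ndufa4l2.

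No member passed the test over all genes. At an adjusted p under 0.05, limma with the Benjamini-Hochberg method called none of the genes (0, or 0%), and the lowest adjusted p among the 43 was 0.138, for Ndufa1. At an unadjusted p under 0.05 lay 6 members, all structural and all lower in SAHA, where 17.4% of all genes lay under it in either direction and 5.56% as lower. These 6 were 16.7% of the structural names, and the same deciles of signal gave 7.77%. limma called 28 genes with a variance trend in the fit, 31 with a robust trend and 27 when only the brighter 50% of genes were tested, and no member among them. The count of 6 was 11 after median centring of the arrays, 12 with the variance trend and 11 with a robust trend. It was 3 without saline replicate 1 (Ndufa1, Ndufb5 and Ndufb10), 3 without SAHA replicate 3 (Ndufa1, Ndufb5 and Ndufs1) and 2 without both (Ndufa1 and Ndufb5). The share of all genes at that threshold under these fits was not worked out, so the changed counts cannot be set against a background.

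The 3 SAHA values lay wholly below the 3 saline values for 14 of the 43 genes, and wholly above them for Ndufa4l2 alone. Among all genes the groups did not overlap for 23.9%, with 10.4% lower and 13.6% higher in SAHA. In genes of the same deciles of signal 20.1% were separated and lower, and among the members it was 32.6%. The share was 42.1% of the 19 measured subunits of the membrane arm (8 genes), 50% of the 4 of the Q module (2 genes) and 10% of the 10 of the N module (1 gene). Genes of the same deciles gave 20.8%, 20.4% and 21.1% in that order. The modules were not tested against each other.

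**Figure D1:**
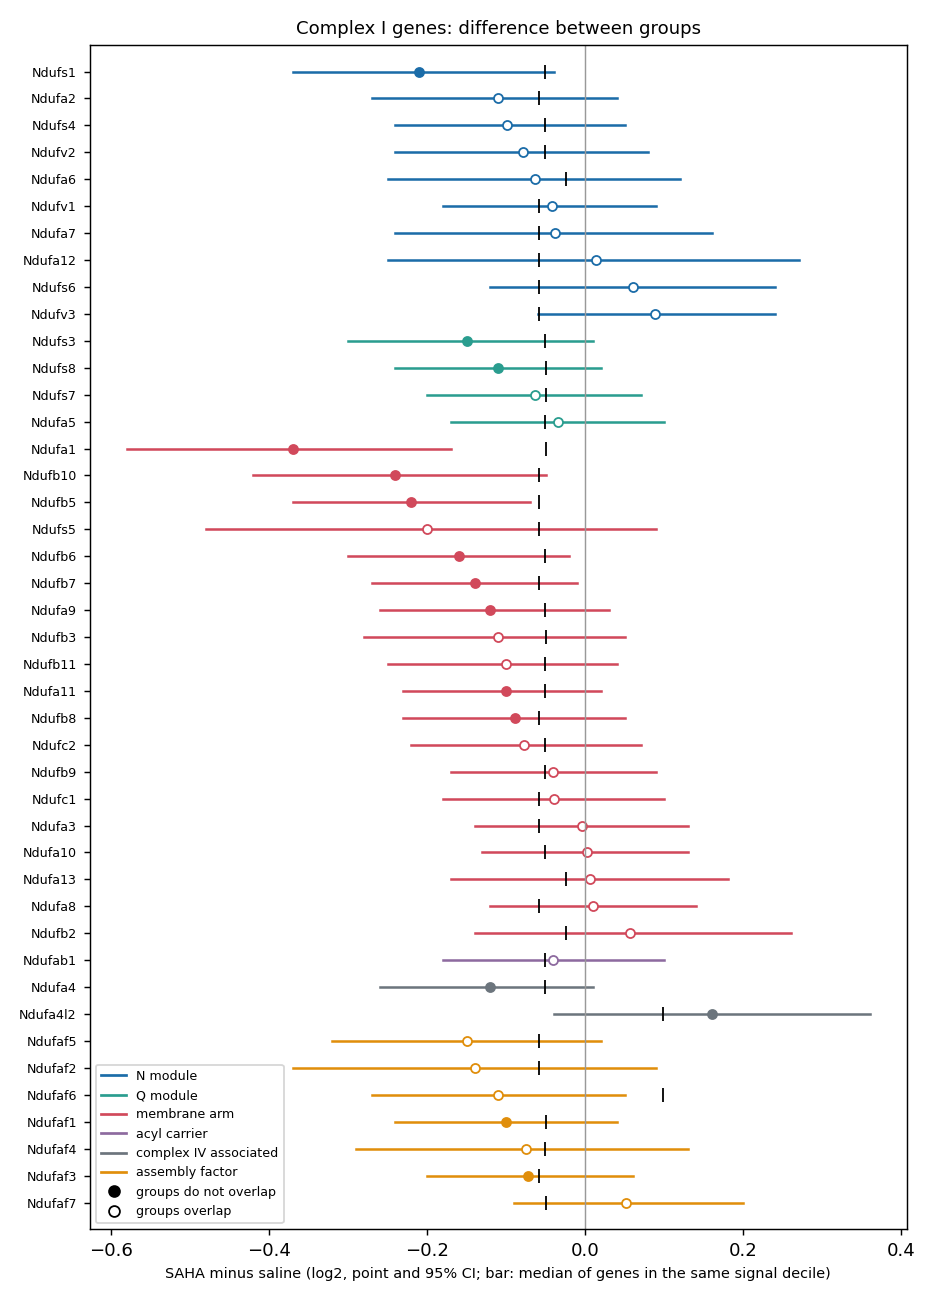
Difference between groups for each of the 43 genes, SAHA minus saline in log2 units on the horizontal axis, with 95% confidence intervals from limma (3 libraries a group); colours mark modules, filled points mark genes whose groups do not overlap, and the short black bars mark the median of all genes in the same decile of signal. Ndufa1 at -0.37 and Ndufb5 at -0.22 have intervals that leave out that bar, as does Ndufaf6 at -0.11, whose bar lies at 0.098.

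The nuclear-encoded core subunits carry between them the flavin and the iron-sulphur clusters. Of the 6 measured, all had a lower mean in SAHA on the deposited values, with Ndufv1 at 0.022 after quantile normalization and 0.017 after cyclic loess. Their median difference was -0.095, and 3 (50%) were separated and lower, where genes of the same deciles gave 20.9%. Ndufs1, which holds iron-sulphur clusters of the N module, had signals of 9.99, 9.88 and 9.83 in saline replicates 1 to 3 and of 9.60, 9.76 and 9.72 in SAHA. Each SAHA library lay below each saline library, and the difference was -0.21 (SE 0.071), with an adjusted p of 0.217 in limma. Without saline replicate 1 it was -0.16, with an unadjusted p of 0.0718. Ndufs3, a subunit of the Q module, was at 10.03, 10.17 and 10.06 in saline and at 9.86, 9.99 and 9.97 in SAHA, a difference of -0.15 (SE 0.068) between groups that did not overlap. Ndufs8, which passes electrons through its clusters in the Q module, was at 8.31, 8.26 and 8.22 against 8.14, 8.15 and 8.16. Its groups lay apart by a small gap, with a difference of -0.11 (SE 0.056).

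The other core subunits differed by less and their groups overlapped. Ndufv1, which binds NADH and the flavin, had a mean of 9.11 ± 0.025 in saline against 9.07 ± 0.056 after SAHA (SD, n = 3). Ndufv2, its partner with an iron-sulphur cluster, was at 9.71 ± 0.050 and 9.63 ± 0.092. Ndufs7, which holds the last cluster before ubiquinone, was at 8.49 ± 0.051 and 8.43 ± 0.021. Without SAHA replicate 3 the difference of Ndufv1 went from -0.042 to -0.071, and without SAHA replicate 1 it was -0.015. Ndufv2 went from -0.079 to -0.039 without SAHA replicate 1. Relative to the median of genes in their own signal decile, Ndufv1 lay 0.017 above and Ndufs7 0.014 below (-0.014). Of the 6 core subunits, 5 lay below that median, Ndufs1 by the most (-0.15).

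The N module was mixed. Of its 10 genes, core and accessory, 7 were lower, with a median of -0.053, and genes of their deciles had a like median of -0.059. Ndufv3, a small subunit at the NADH-binding tip, was at 8.93, 8.88 and 8.76 in saline and 8.92, 8.99 and 8.92 in SAHA. It was the complex I subunit with the highest positive difference, 0.088 (SE 0.066), on overlapping groups, and stood at 0.041 without saline replicate 3 and 0.14 without both libraries that stood apart. Ndufs6, which binds zinc and joins late in assembly, was at 8.88, 8.90 and 8.65 in the saline libraries, and the SAHA libraries lay within 8.86 to 8.89. Its positive difference of 0.061 rests on saline replicate 3, the lowest of the 6 libraries, and was -0.018 without it, where leaving out saline replicate 1 gave 0.098.

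Ndufa12, which takes the place of the assembly factor Ndufaf2 in the finished enzyme, had a spread of 0.22 (SD) in saline, where replicate 1 was at 9.29 and the others at 8.87 and 8.95. Its difference was 0.013 (SE 0.11), and 0.14 without saline replicate 1. Ndufs4, a late-joining subunit whose deletion in mice is a model of Leigh syndrome, averaged 10.82 ± 0.047 in saline against 10.72 ± 0.068 after SAHA (SD, n = 3). Its difference of -0.099 was -0.063 without SAHA replicate 1. Ndufa2, Ndufa6 and Ndufa7 differed by -0.11, -0.064 and -0.038, all with overlapping groups. Without SAHA replicate 3 Ndufa6 was at -0.013 and Ndufa7 at -0.12. Without SAHA replicate 2 Ndufa6 was at -0.13 and Ndufa7 at 0.034, and Ndufa6 was at -0.018 without saline replicate 2. In the Q module Ndufa5 differed by -0.035 (SE 0.060), and by -0.009 without SAHA replicate 3. Ndufab1, the mitochondrial acyl carrier protein that sits in both arms and also serves fatty acid synthesis, differed by -0.041 (SE 0.059), and by -0.027 without saline replicate 1.

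The membrane arm held 5 of the 6 members at an unadjusted p under 0.05, and 15 of its 19 measured genes were lower, with a median of -0.10. Genes of the same deciles had a median of -0.051 and 76.5% of them were lower. At that p lay 26.3% of the membrane arm genes, all lower, where genes of the same deciles gave 8.04% as lower. These counts are on the deposited values. After quantile normalization or cyclic loess Ndufb6, Ndufb7 and Ndufb10 were no longer under that p. Ndufa1, a small membrane subunit encoded on the X chromosome and needed for assembly, had signals of 8.45, 8.75 and 8.63 in saline and 8.33, 8.19 and 8.19 in SAHA. Replicate 1 was the lowest saline library and still lay above every SAHA library, and the saline mean was 1.29-fold the SAHA mean. The difference was -0.37 (SE 0.088), with a 95% interval from -0.58 to -0.17 and an adjusted p of 0.138 in limma. Over the single libraries left out it ranged from -0.45 to -0.30, and it was -0.43 without both libraries that stood apart. Its adjusted p lay between 0.0717 and 0.389 over the alternative fits.

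Ndufb5, an accessory subunit with a membrane-spanning helix, was at 9.28, 9.31 and 9.36 in saline and at 9.01, 9.14 and 9.14 in SAHA. The groups were well apart relative to their spread, with SDs of 0.038 and 0.073 (n = 3) and a difference of -0.22 (SE 0.063). Ndufb10, a subunit with disulphide bonds on the outer side of the membrane, lay within 8.98 to 9.01 in saline and at 8.86, 8.83 and 8.60 in SAHA. All SAHA libraries lay below all saline libraries, but SAHA replicate 3 was far below its group. The difference of -0.24 (SE 0.079) became -0.15 without that library. The adjusted p values in limma were 0.170 for Ndufb5 and 0.208 for Ndufb10.

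The sequence upstream of these 3 genes is shown because they had the lowest p-values of the list. Each line gives the 250 bases before the annotated start (RefSeq, GRCm38.p6), 5′ to 3′ on the strand of the gene, with capitals marking any of 6 promoter motifs searched, which are described further on. The windows are chrX:37191239-37191488 on the minus strand for Ndufa1, chr3:32736813-32737062 on the plus strand for Ndufb5 and chr17:24724424-24724673 on the minus strand for Ndufb10.
Ndufa1: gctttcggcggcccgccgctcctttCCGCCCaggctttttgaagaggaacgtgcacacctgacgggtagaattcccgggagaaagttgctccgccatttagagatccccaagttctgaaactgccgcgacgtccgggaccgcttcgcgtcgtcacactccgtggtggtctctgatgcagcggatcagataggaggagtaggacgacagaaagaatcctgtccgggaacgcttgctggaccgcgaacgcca
Ndufb5: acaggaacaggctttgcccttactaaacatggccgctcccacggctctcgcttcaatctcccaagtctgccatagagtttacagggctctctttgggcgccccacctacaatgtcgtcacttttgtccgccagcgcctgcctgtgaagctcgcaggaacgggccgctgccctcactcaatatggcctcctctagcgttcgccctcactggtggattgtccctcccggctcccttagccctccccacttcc
Ndufb10: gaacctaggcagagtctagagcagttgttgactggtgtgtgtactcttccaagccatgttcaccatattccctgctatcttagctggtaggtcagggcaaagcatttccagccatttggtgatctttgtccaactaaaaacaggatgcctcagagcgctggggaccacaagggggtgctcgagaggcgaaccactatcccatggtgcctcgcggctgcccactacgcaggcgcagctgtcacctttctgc
Of the motifs searched, 1 copy of an SP-type box lies in the Ndufa1 window, at position -225 from the start, and the letters searched for are not in the windows of Ndufb5 and Ndufb10.

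Among the other membrane-arm subunits, Ndufb6 was at 9.67, 9.58 and 9.61 in saline and 9.40, 9.52 and 9.46 in SAHA. Ndufb7 was at 8.78, 8.76 and 8.73 in saline and 8.65, 8.61 and 8.60 in SAHA. In both genes the groups were separated, with differences of -0.16 (SE 0.061) and -0.14 (SE 0.055). Ndufa9, which binds a nucleotide at the junction of the arms, Ndufa11, which bridges membrane subunits, and Ndufb8 were also separated and lower. They differed by -0.12, -0.10 and -0.089. Saline libraries of Ndufb8 lay between 9.24 and 9.26 and SAHA libraries at 9.13, 9.23 and 9.12, so SAHA replicate 2 nearly reached the saline values.

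Ndufs5 had the fifth lowest difference of the list, -0.20 (SE 0.12), but its groups overlapped. Saline replicate 1 was at 8.96 and the other saline libraries at 8.60 and 8.58, while SAHA libraries were at 8.33, 8.65 and 8.57. Without saline replicate 1 the difference was -0.074, and without SAHA replicate 1 it was -0.11. A second X-linked subunit, Ndufb11, was at 10.36, 10.29 and 10.22 in saline and 10.17, 10.24 and 10.16 in SAHA, a difference of -0.10 (SE 0.063) with overlap of saline replicate 3 and SAHA replicate 2, and of -0.054 without both libraries that stood apart. Ndufb3, Ndufc2, Ndufb9 and Ndufc1 differed by -0.11, -0.077, -0.041 and -0.039, all overlapping. Ndufb9 was at -0.021 without saline replicate 1, Ndufc1 at -0.016 without SAHA replicate 3 and Ndufb3 at -0.17 without both. Without SAHA replicate 1 alone, Ndufb3 was at -0.059.

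Several membrane-arm subunits had group means closer than their spread. Ndufa10, a bright accessory subunit related to nucleoside kinases, averaged 11.32 ± 0.036 in saline and 11.32 ± 0.025 after SAHA (SD, n = 3), a difference of 0.0026 with a 95% interval from -0.13 to 0.13. Ndufa8, a twin-cysteine subunit on the outer side of the membrane, was at 8.66 ± 0.019 and 8.67 ± 0.021. Ndufa3 and Ndufa13, the latter also known as the cell-death regulator GRIM-19, differed by -0.0047 (SE 0.059) and 0.0054 (SE 0.074). Ndufb2 differed by 0.057 (SE 0.085), and by 0.12 without saline replicate 1. The sign of each of these 5 differences turned when 1 library or another was left out.

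**Figure D2:**
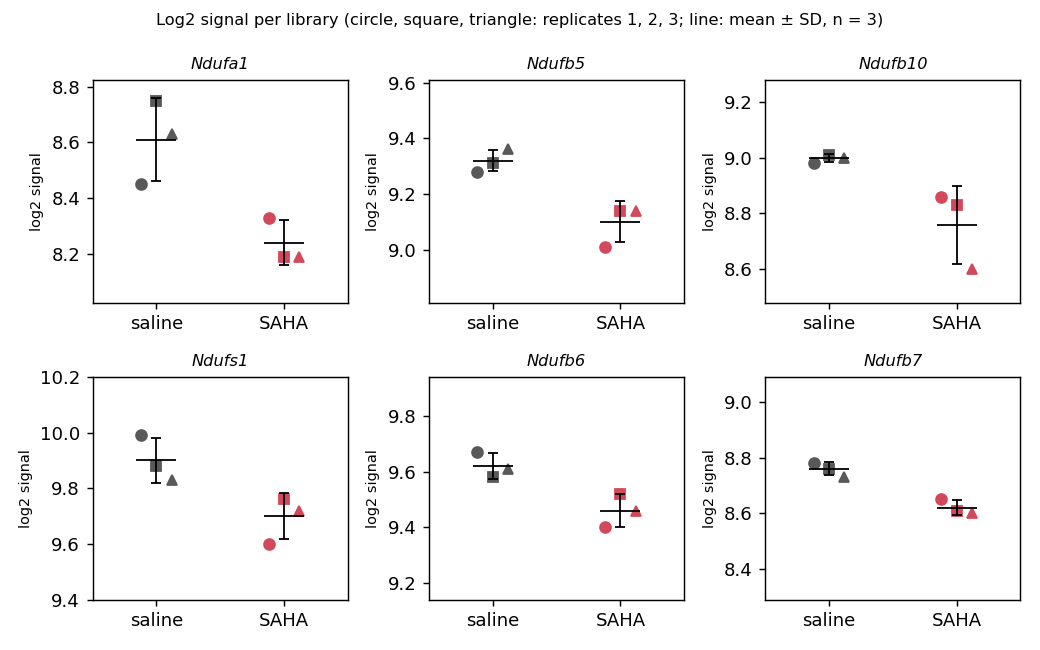
Log2 signal of the 6 genes at an unadjusted p under 0.05 in the 3 saline and 3 SAHA libraries, with replicates 1 to 3 as circles, squares and triangles and mean ± SD as lines; every panel spans the same 0.8 log2 units, and the levels of different genes are not comparable. In each panel all SAHA points lie below all saline points; SAHA replicate 3 of Ndufb10, at 8.60, lies well below the rest of its group.

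The genes that keep complex I names but act elsewhere went opposite ways. Ndufa4, which is a subunit of complex IV, was at 11.65, 11.58 and 11.54 in saline and 11.47, 11.45 and 11.48 in SAHA, separated, with a difference of -0.12 (SE 0.058). Its probe set had the highest signal of the list. Ndufa4l2, its hypoxia-induced paralogue, had the lowest signal, at 6.43, 6.29 and 6.46 in saline and 6.71, 6.47 and 6.48 in SAHA. Its groups were separated by a small gap, with a difference of 0.16 (SE 0.086) and an adjusted p of 0.358 in limma, and of 0.084 without SAHA replicate 1. Genes of its decile of signal had a median difference of 0.098. Without these 2 genes, 27 of 34 subunits were lower and the median was -0.078.

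Of the 7 assembly factors, Ndufaf1 and Ndufaf3 (28.6%) were separated and lower, where genes of the same deciles gave 18.3%. Ndufaf1, which acts in building the membrane arm, was at 8.41, 8.40 and 8.35 in saline and 8.22, 8.32 and 8.30 in SAHA, a difference of -0.10 (SE 0.059). Ndufaf3, which acts with Ndufaf4 early on the Q module, was at 9.02, 9.04 and 8.97 against 8.93, 8.96 and 8.91. Its difference of -0.072 (SE 0.056) was near the median of its decile, -0.059. Ndufaf4 itself differed by -0.075 (SE 0.091), with saline replicate 1 highest at 9.96 and SAHA replicate 1 lowest at 9.61. It was -0.0045 without the first and -0.007 without the second.

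Ndufaf5, an enzyme that hydroxylates an arginine of Ndufs7, was at 8.85, 8.81 and 8.96 in saline and 8.62, 8.74 and 8.81 in SAHA. SAHA replicate 3 met saline replicate 2, and the difference was -0.15 (SE 0.074), or -0.095 without SAHA replicate 1. Ndufaf2 was at 8.71, 8.71 and 8.65 in saline and 8.60, 8.72 and 8.33 in SAHA, so its difference of -0.14 (SE 0.099) was set by SAHA replicate 3 and was -0.029 without it. Ndufaf6 was at 6.56 ± 0.10 and 6.45 ± 0.023 (SD, n = 3), and its difference of -0.11 was -0.063 without saline replicate 1. It is a dim probe set whose decile had a median difference of 0.098, and it lay farther below its decile (-0.21) than any other assembly factor. Ndufaf7, a methyltransferase, was the 1 assembly factor with a positive difference, 0.052 (SE 0.062), which was 0.033 without SAHA replicate 3. In the main fit none of the 7 was at an unadjusted p under 0.05, and limma gave them adjusted p values from 0.340 to 0.685. Some fell under that unadjusted p in other limma fits. Among them were Ndufaf6 after quantile normalization and cyclic loess (-0.18 in each) and Ndufaf5 after median centring (-0.19). The median of the 7 was -0.14 after median centring, -0.051 after cyclic loess and -0.053 after quantile normalization. With both libraries that stood apart left out it was -0.055.

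**Figure D3:**
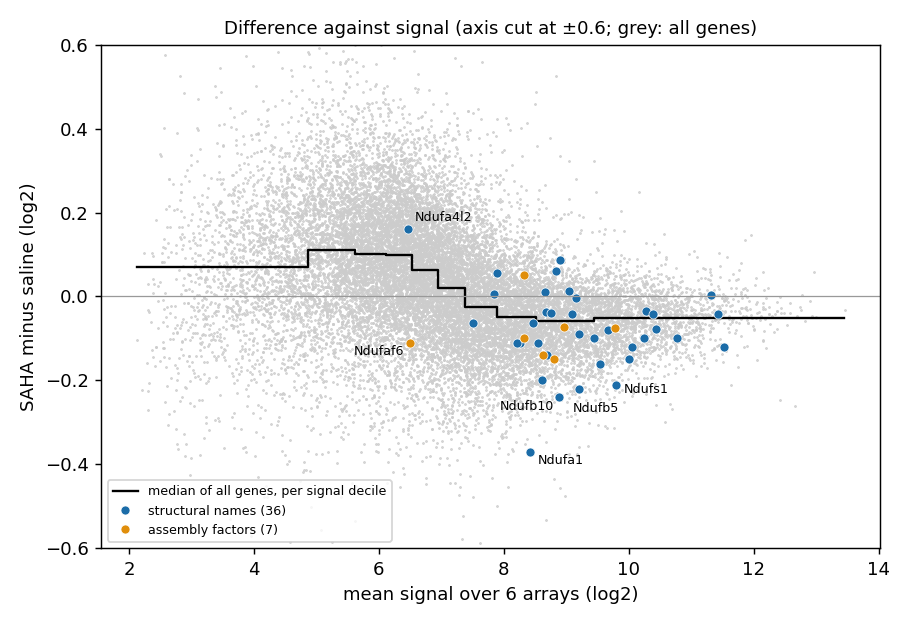
SAHA minus saline difference (log2, vertical axis) against mean log2 signal over the 6 arrays for all 19938 genes in grey, with the 36 structural names in blue, the 7 assembly factors in orange and the median of each signal decile as a black step line; the vertical axis is cut at ±0.6. Medians run from 0.11 in the second dimmest decile to -0.059 and -0.051 in the brightest pair, where most complex I genes lie.

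The libraries show how closely complex I genes followed other bright genes. Relative to each gene's saline mean, the median over the 43 genes was 0.030, 0.0039 and -0.037 in saline replicates 1 to 3 and -0.11, -0.053 and -0.086 in the SAHA replicates. All genes of the upper 2 deciles gave 0.025, -0.0063 and -0.019 in saline and -0.087, -0.022 and -0.054 in SAHA. The order of the libraries was thus the same in both. SAHA replicate 1 was the lowest of the 6 libraries for 16 members, SAHA replicate 3 for 12 and saline replicate 1 for 0, while saline replicate 1 was the highest for 20. Among all genes of the upper 2 deciles, SAHA replicate 1 was lowest for 46.3% and saline replicate 1 highest for 45.6%.

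After the median of all genes in the same decile was taken off in each library, the members lay at 0.0052, 0.0079 and -0.020 in saline and at -0.023, -0.035 and -0.039 in SAHA. Each SAHA library then still lay below each saline library, though close to saline replicate 3. By module, the membrane arm stood at -0.12, -0.067 and -0.10 in the SAHA libraries before that step and between -0.0073 and 0.022 in saline. The N module was at -0.097, -0.0079 and -0.00014 in SAHA, and saline replicate 3, at -0.063, lay among these values.

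**Figure D4:**
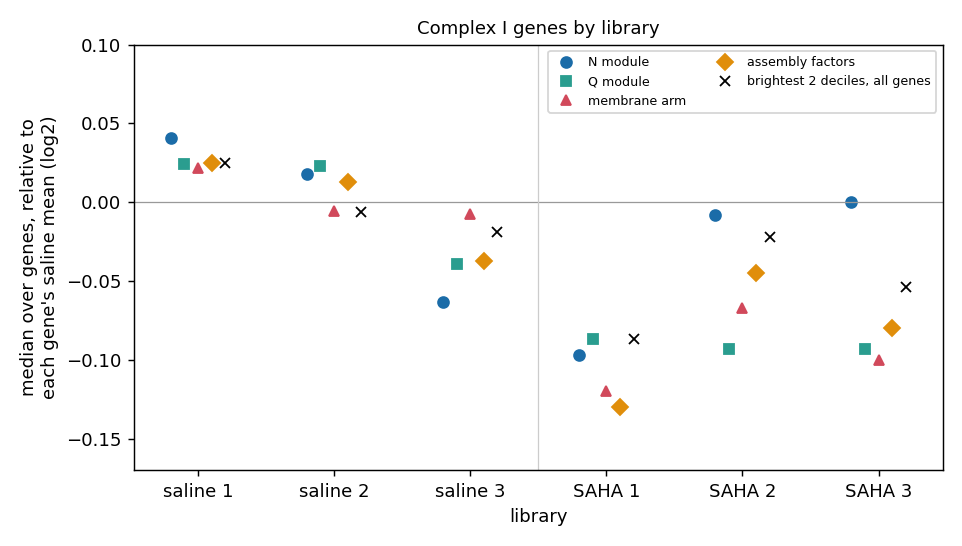
Median over the genes of a group of the log2 signal relative to each gene's saline mean, per library, for the N module (10 genes), the Q module (4), the membrane arm (19), the assembly factors (7) and, as crosses, all 3988 genes of the upper 2 signal deciles. The membrane arm lies at or below -0.067 in each SAHA library, and the crosses also lie below 0 there, at -0.087, -0.022 and -0.054.

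Scaling between arrays set how far the list lay from 0. The median of the structural names was -0.12 after median centring, -0.078 on the deposited values, -0.026 after cyclic loess and -0.023 after quantile normalization, so it stayed below 0 in all 4. The count of lower structural genes was 32, 28, 21 and 21 in that order. Ndufa1, Ndufb5, Ndufb10 and Ndufs1 kept differences of -0.32, -0.15, -0.18 and -0.15 after quantile normalization. Of the 43 genes, 30 kept their direction under all the alternative fits, 27 of them lower in SAHA.

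**Figure D5:**
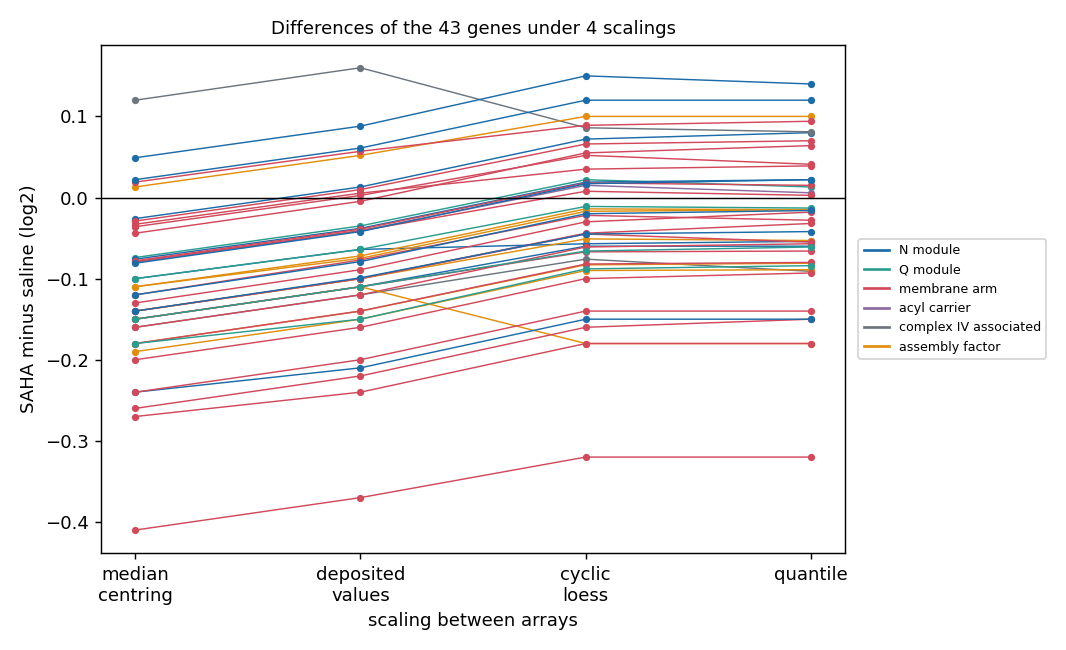
SAHA minus saline difference (log2) of each of the 43 genes, joined by lines, after median centring, on the deposited values, after cyclic loess and after quantile normalization, coloured by module. The spread among genes is much alike in the 4 columns, while most lines move towards 0 or across it from left to right; Ndufa1, the lowest line, goes from -0.41 to -0.32.

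For some genes a further probe set gave a second reading. The probe sets of Ndufs3 differed by -0.15 and -0.13, and those of Ndufab1 by -0.041 and -0.052. For Ndufb11 the dimmer probe set was at 8.00, 8.00 and 8.01 in saline and 7.86, 7.92 and 7.81 in SAHA, a difference of -0.14 (SE 0.057) between separated groups. For Ndufc1 the dimmer probe set was at 7.77, 7.88 and 7.86 in saline and 7.67, 7.55 and 7.78 in SAHA, a difference of -0.17 (SE 0.075), where the brighter gave -0.039. For Ndufa11 the brighter probe set gave -0.10 and the other -0.0068. Genes of the respiratory chain often have near-identical copies elsewhere in the genome, and which copy a probe set reads was not tested. The probe set shared by Ndufs5 and its pseudogene Ndufs5-ps was at 9.48, 9.48 and 9.50 in saline and 9.27, 9.39 and 9.37 in SAHA, and those shared by Ndufb4 and Ndufb4b differed by -0.073 and -0.045.

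The promoters of the members share features that the choice by name did not use. RefSeq promoter windows of 300 bases, 250 before the start and 50 after it, were found for 38 of the 43 genes. Their GC content had a median of 59.2% where all genes had 52.7%. The ratio of observed to expected CpG was over 0.6 in 84.2% of them and in 36.4% of all promoters. Both comparisons are with all genes, whatever their signal. The motifs searched on both strands were GCATGCGC for NRF1, a factor that drives nuclear genes of the respiratory chain, CCGGAAG for ETS factors such as GABP, AAGATGGC for YY1, GGGCGG for SP factors, TGACGTCA for CREB-type factors, and TATAAA.

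NRF1 letters were in 5 windows (13.2%, where all 27025 genes with a window gave 3.05%), ETS letters in 5 (13.2% against 9.93%) and YY1 letters in 7 (18.4% against 3.19%). SP boxes were in 19 (50% against 38.2%), CREB-type sites in 3 (7.89% against 2.03%) and TATAAA in 4 (10.5% against 15.7%). In the upper 4 signal deciles, which hold every member with a window, SP boxes were in 4533 genes and not in 1888. ETS letters were in 1288 and not in 5133. Both shares are larger than those of the members. NRF1 letters were in 412 and not in 6009, YY1 letters in 366 and not in 6055. CREB-type sites were in 248 and not in 6173, TATAAA in 542 and not in 5879. For these the share is smaller than in the members. A match is a run of letters, not a measured binding site. GCATGCGC overlaps its own reverse complement in GCGCATGCGC, which Ndufa11, Ndufaf4 and Ndufaf5 hold.

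The stretches of 30 bases around the NRF1, ETS and YY1 letters are shown to let the members be compared, 5′ to 3′ on the strand of the gene, with the motif in capitals. NRF1 letters are in capitals in the first 5 lines, ETS letters in the next 5 and YY1 letters in the last 7. For the ETS lines the places are chr4:40279636-40279665 for Ndufb6, chr8:83566726-83566755 for Ndufb7, chr2:90904731-90904760 for Ndufs3, chr19:3912742-3912771 for Ndufs8 and chr2:119662835-119662864 for Ndufaf1. All of these are on the minus strand except Ndufb7 on the plus strand. For the NRF1 lines they are chr15:82354356-82354385 for Ndufa6 and chr2:36049328-36049357 for Ndufa8 on the minus strand. On the plus strand they are chr17:56717691-56717720 for Ndufa11, chr4:24897959-24897988 for Ndufaf4 and chr2:140170651-140170680 for Ndufaf5. For the YY1 lines they are chr7:3617384-3617413 for Ndufa3 and chr10:80249462-80249491 for Ndufs7 on the plus strand. On the minus strand they are chr6:126849097-126849126 for Ndufa9, chr19:44555393-44555422 for Ndufb8, chr3:51408915-51408944 for Ndufc1, chr13:114388045-114388074 for Ndufs4 and chr13:73328433-73328462 for Ndufs6.
Ndufa6: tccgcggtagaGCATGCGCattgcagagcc
Ndufa8: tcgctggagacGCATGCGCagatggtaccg
Ndufa11: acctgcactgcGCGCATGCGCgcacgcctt
Ndufaf4: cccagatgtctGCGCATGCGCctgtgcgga
Ndufaf5: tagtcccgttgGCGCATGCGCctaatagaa
Ndufb6: atcgtccttgttCTTCCGGtcccctcccct
Ndufb7: agcctagatgacCCGGAAGacactgaaggg
Ndufs3: ccccgcgtccgcCCGGAAGaagagtcactg
Ndufs8: cttaggctccgcCTTCCGGttgaaccgcat
Ndufaf1: gcgggaccacaaCCGGAAGcgtggcgaacc
Ndufa3: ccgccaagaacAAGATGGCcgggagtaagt
Ndufa9: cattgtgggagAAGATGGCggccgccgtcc
Ndufb8: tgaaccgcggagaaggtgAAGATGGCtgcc
Ndufc1: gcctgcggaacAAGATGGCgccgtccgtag
Ndufs4: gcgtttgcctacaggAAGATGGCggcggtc
Ndufs6: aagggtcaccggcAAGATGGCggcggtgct
Ndufs7: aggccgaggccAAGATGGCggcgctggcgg
The YY1 letters of all 7 genes are on the strand of the gene and begin between 23 and 39 bases after the start. The ETS letters begin within 30 bases of the start in Ndufb7, Ndufs3, Ndufs8 and Ndufaf1 and at position -232 in Ndufb6.

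The members with ETS letters were all lower and separated. Ndufb6 differed by -0.16, Ndufs3 by -0.15, Ndufb7 by -0.14, Ndufs8 by -0.11 and Ndufaf1 by -0.10, while 8 of the 33 members without these letters were separated and lower. This pattern was noticed after the values were seen. Among all genes of the upper 4 signal deciles with a promoter window, 22.4% of 1288 with ETS letters were separated and lower and 18.8% of 5133 without. For NRF1 letters these shares were 18.0% with and 19.6% without, and for YY1 letters 22.7% and 19.3%. The members with NRF1 letters had differences between -0.15 for Ndufaf5 and 0.0098 for Ndufa8, and those with YY1 letters between -0.12 for Ndufa9 and 0.061 for Ndufs6.

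Other genes of the pathway were looked at by lists. Of the 12 measured assembly factors with other names, 9 were lower with a median of -0.058, where genes of the same deciles were lower in 57.0%, and 2 (16.7%) were at an unadjusted p under 0.05, both lower, where genes of the same deciles gave 7.57%. Tmem126b, which works with Ndufaf1 in the membrane arm assembly complex, was at 8.65, 8.63 and 8.67 in saline and 8.49, 8.54 and 8.44 in SAHA, separated, with a difference of -0.16 (SE 0.057). Nubpl, which inserts iron-sulphur clusters into complex I, averaged 6.39 ± 0.078 in the control group and 6.17 ± 0.16 in the treated group (SD, n = 3), with a difference of -0.22 (SE 0.089). Acad9, a further partner of Ndufaf1, differed by 0.078 (SE 0.060). ND3, the core subunit of the mitochondrial genome that was measured, was at 11.95, 11.73 and 11.82 in saline and 11.65, 11.73 and 11.62 in SAHA, a difference of -0.17 (SE 0.073).

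Of 10 regulators of mitochondrial gene expression, 6 were lower (60%, against 49.1% of the same deciles). At an unadjusted p under 0.05 in limma lay 0. Ppargc1a, the coactivator of mitochondrial biogenesis, differed by -0.025 (SE 0.063), Nrf1 by -0.13 (SE 0.075) and Gabpa by -0.13 (SE 0.073). Tfam, which packages and transcribes mitochondrial DNA, differed by -0.30 (SE 0.14). Its groups overlapped, at 7.18, 6.67 and 6.86 in saline and 6.39, 6.76 and 6.67 in SAHA. Higher were Ppargc1b (0.065), Esrra (0.051), Pprc1 (0.013) and Sp1 (0.013). Nrf1 was at 7.24, 7.17 and 7.41 in saline and 7.17, 7.10 and 7.17 in SAHA, so its groups met at the printed precision. On the deposited values, 0 of 4 genes of complex II were lower, with a median of 0.027, where genes of the same deciles were lower in 76.8%. For complex III it was 8 of 9 (88.9%, against 78.2%), with a median of -0.12. For complex IV it was 8 of 10 (80%), with a median of -0.043, and for ATP synthase 13 of 16 (81.2%), with a median of -0.061. Genes of the same decile as these were lower in 82.6%, so neither share of lower genes was above that background. Separated and lower were 7 of 16 ATP synthase genes (43.8%, against 22% of the same decile). For complex III it was 3 of 9 (33.3%, against 21.1%), for complex IV 1 of 10 (10%, against 22%) and for complex II 0. At an unadjusted p under 0.05 in limma lay 4 genes of complex III (44.4%, against 7.03%), all lower. ATP synthase had 2, both lower (12.5%, against 5.02%), and complexes II and IV had 0. The difference between complexes was not tested.

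Sums of cell type markers lay close to each other in the groups for most lists, but some single markers differed. Summed over a marker list on the linear scale and given as log2, the 4 measured excitatory neuron markers lay between 13.05 and 13.09 in saline and 13.04 and 13.07 in SAHA, with 3 of 4 lower. Of these Neurod6 was at 9.65, 9.39 and 9.41 in saline and 9.24, 9.24 and 9.30 in SAHA, separated and lower, with a difference of -0.23 (SE 0.081) and an adjusted p of 0.226 in limma. It was the 1 marker of this list at an unadjusted p under 0.05. Slc17a7 was at 10.37, 10.45 and 10.48 in saline and 10.52, 10.53 and 10.57 in SAHA, separated and higher by 0.11 (SE 0.060). Interneuron markers (6 of 6 measured, 4 lower) lay between 12.54 and 12.62 and between 12.53 and 12.60, and astrocyte markers (6 of 6, 4 lower) between 12.63 and 12.68 and between 12.62 and 12.72. Oligodendrocyte markers (5 of 6, 4 lower) lay between 11.33 and 11.42 in saline and at 11.22, 11.19 and 11.57 in SAHA. The sums did not overlap for microglia, at 10.15 to 10.17 in saline and 10.12 to 10.14 in SAHA (5 of 5 measured, 3 lower), and for erythroid cells, at 7.76 to 7.86 and 7.89 to 8.06 (2 of 5 measured, 0 lower). Sums of endothelial (3 of 4 measured, 1 lower), choroid plexus (4 of 4, 1 lower) and striatal (4 of 6, 2 lower) markers overlapped. In the other lists, the markers at an unadjusted p under 0.05 in limma were Aqp1 of choroid plexus (0.42), Slc4a1 of erythroid cells (0.38), Aif1 of microglia (-0.21) and Vip of interneurons (-0.20). All but Vip had separated groups. Of all genes, 17.4% lay under that p in either direction. The part of these cell types in the differences of complex I genes was not tested.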

How the data were processed

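The deposited table holds log2 values of 35556 probe sets on 6 arrays; the authors used Affymetrix Expression Console and RMA, per the submitters' processing notes, and the build is not given in the sources used here. RMA includes a normalization between arrays, and its part in the differences of bright genes was not tested. A gene was the brightest of its probe sets with 1 symbol in the platform annotation (21789 probe sets, 19938 genes). Groups came from the sample titles; every column of sample values was used.

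The groups were compared in R 4.3.3 by limma 3.58.1 (functions lmFit, eBayes), two-sided, without a block, with Benjamini-Hochberg adjustment over all genes. The step was tested on simulated data with changes larger than any difference among the members. Whether changes as small as those of the members would be called was not tested. Lists are described by counts and medians beside all genes of the same signal decile, with no set test. Named with values are the core subunits, assembly factors, separated members, the 10 lowest p, the X-linked, brightest and dimmest members, and others in brief. Genes of the pathway lists and second probe sets were picked as examples after their values were seen. The members, lists and tests were chosen with earlier results of these data known. Alternatives were other scalings, filters, probe set rules, variance priors, array weights, a replicate block and left-out libraries; 2 changes of the member list were added after seeing the data. Promoters are RefSeq, GRCm38.p6, matched by Entrez identifier.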

Additional observations from a re-analysis of the deposited data

How the results depend on the processing

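The structural median was -0.12 after median centring, -0.023 after quantile normalization, -0.026 after cyclic loess and -0.029 relative to the signal decile, and between -0.10 and -0.055 with single libraries left out. For the assembly factors it was -0.14, -0.053, -0.051 and -0.051 in that order, -0.055 without saline replicate 1 and SAHA replicate 3, and between -0.13 and -0.068 with single libraries left out. limma called 27 genes among those at or above the median signal, 28 when the variance followed a trend and 31 when that trend was robust, none of them complex I genes; under each other fit it called 0. Structural genes at an unadjusted p under 0.05 numbered 11, 12 and 11 with median centring, the trend and the robust trend. They numbered 4 after quantile normalization, 4 after cyclic loess, 2 without both libraries apart, and 3 to 5 with single libraries left out. Under none of the alternative fits was the share of all genes at that unadjusted threshold worked out. Cyclic loess and quantile normalization change how bright genes compare between arrays by construction; the cause of the other changes was not tested.

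With the replicate number as a block, 4 structural genes lay at an unadjusted p under 0.05, and no other call changed. Deviations of samples with the same number had correlations of -0.10, -0.079 and 0.015, and those with unlike numbers lay between -0.084 and 0.15. No pairing by number is seen in these values. They are deviations from means of 3 samples and cannot exclude a pairing, and the labels state none.

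The sign turned for Ndufa10 (-0.036), Ndufa12 (-0.026), Ndufa13 (-0.033) and Ndufa8 (-0.029) after median centring. After quantile normalization it turned for Ndufa3 (0.064), Ndufa5 (0.013), Ndufa7 (0.022), Ndufab1 (0.0058), Ndufb9 (0.0027), Ndufc1 (0.015) and Ndufv1 (0.022), after cyclic loess for the same genes (0.055, 0.022, 0.019, 0.015, 0.0077, 0.018 and 0.017), and relative to the decile (0.054, 0.016, 0.022, 0.010, 0.010, 0.020 and 0.017). Without both libraries apart Ndufa13 was at -0.064, Ndufa3 at 0.031 and Ndufa5 at 0.0058. With single libraries left out, Ndufa10 ranged from -0.012 to 0.023, Ndufa12 from -0.070 to 0.14, Ndufa13 from -0.064 to 0.045, Ndufa3 from -0.039 to 0.018, Ndufa7 from -0.12 to 0.034, Ndufa8 from -0.00085 to 0.020, Ndufb2 from -0.014 to 0.12 and Ndufs6 from -0.018 to 0.10. Signal over background is not given in the table, so dim members such as Ndufa4l2 and Ndufaf6 have no detection call.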
